A study of Homo sapiens with 9 samples.

Results

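The 10 genes described here encode enzymes that modify collagen after its chain has been made and enzymes that later cross-link the secreted fibre. They were taken by name: the prolyl 4-hydroxylase alpha subunits P4HA1, P4HA2 and P4HA3, the lysyl hydroxylases PLOD1, PLOD2 and PLOD3, and the lysyl oxidases LOX, LOXL1, LOXL2 and LOXL4. All 10 were found among the 60676 genes of the deposited count table, and all 10 passed the filter on low counts that left 15500 genes for testing. The cells were A549, a lung adenocarcinoma line of epithelial character obtained from ATCC. Each group had been transduced overnight with a lentivirus carrying 1 short hairpin RNA and then selected with puromycin, so all groups share the infection and the drug. shLITATS1-1 and shLITATS1-2 are different hairpins against the long non-coding RNA LITATS1, and shNT is a non-targeting hairpin; each group had 3 libraries, described as biological replicates. No group was an untransduced culture, and every result is from this 1 cell line.

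Collagen chains are hydroxylated in the endoplasmic reticulum before they fold. Prolyl 4-hydroxylases are made of an alpha subunit, which carries the catalytic site, and the beta subunit P4HB, and their product, 4-hydroxyproline, holds the collagen triple helix stable at body temperature. Lysyl hydroxylases turn lysines of the chain into hydroxylysines, which can carry sugars and form stronger cross-links; PLOD2 acts on the telopeptides at the ends of the helix, and PLOD3 also has glycosyltransferase activity. Both kinds of hydroxylase need iron, 2-oxoglutarate, oxygen and ascorbate. Lysyl oxidases are copper enzymes that work outside the cell, where they oxidise lysines and hydroxylysines of collagen and elastin to the aldehydes from which cross-links form. P4HA1, P4HA2, PLOD2 and LOX are known targets of hypoxia-inducible factors in many cell types, and stiffening of tumour stroma is the setting in which these enzymes are best known in lung cancer.

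Promoter sequences are shown for a pair of hydroxylase subunits and PLOD2 because these 3 known hypoxia targets moved in different ways. Each window is the 250 bases before the RefSeq start on GRCh38.p14, written 5′ to 3′ along the gene's strand. Capitals mark ACGTG or GCGTG, the cores of the hypoxia response element, on either strand.
PLOD2 (chr3:146161185-146161434, minus strand): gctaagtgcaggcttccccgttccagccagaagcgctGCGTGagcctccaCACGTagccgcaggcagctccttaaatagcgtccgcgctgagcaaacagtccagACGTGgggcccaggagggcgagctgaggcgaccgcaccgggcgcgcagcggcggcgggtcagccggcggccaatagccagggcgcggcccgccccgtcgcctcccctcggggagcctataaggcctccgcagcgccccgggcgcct
P4HA1 (chr10:73096867-73097116, minus strand): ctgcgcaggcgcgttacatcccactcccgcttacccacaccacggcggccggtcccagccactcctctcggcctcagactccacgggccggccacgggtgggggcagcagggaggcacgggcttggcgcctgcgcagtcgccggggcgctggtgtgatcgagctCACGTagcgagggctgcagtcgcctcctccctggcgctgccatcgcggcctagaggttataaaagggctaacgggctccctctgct
P4HA2 (chr5:132227092-132227341, minus strand): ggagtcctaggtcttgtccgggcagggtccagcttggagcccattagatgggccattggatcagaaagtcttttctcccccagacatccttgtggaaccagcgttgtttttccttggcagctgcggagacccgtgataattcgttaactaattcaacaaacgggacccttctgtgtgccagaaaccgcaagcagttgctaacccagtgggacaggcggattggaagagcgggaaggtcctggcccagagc
The PLOD2 window held 3 cores, GCGTG at 213 and ACGTG at 200 and 146 bases before the start, the one at 200 being on the opposite strand. The P4HA1 window held 1 core, ACGTG on the opposite strand at 86 bases before the start, and the P4HA2 window held 0. RefSeq windows were matched for 8 of the 10 genes. LOX had the most cores, with 4 ACGTG matches, PLOD1 had 2 GCGTG matches, and LOXL1, LOXL4 and PLOD3 had 0. Over all 35116 windows of the same length, 43.2% held at least 1 ACGTG or GCGTG on either strand, 18.5% held ACGTG and 32.2% held GCGTG. A match describes the letters of the window and says nothing of whether a factor binds there. All 8 windows overlap the gene bodies of the GENCODE annotation, and those of LOXL1, P4HA2, PLOD1, PLOD2 and PLOD3 lie wholly inside them, downstream of the first annotated start.

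Depth was nearly even. Each library held between 19610514 and 19989652 fragments assigned to genes, levels are given as TMM-scaled CPM, counts brought to a common library size, and fold changes are log2 ratios from edgeR. LITATS1 (ENSG00000233621, minus strand, chr1:37454879-37474411) averaged 3.33 ± 0.405 CPM with shLITATS1-1 and 3.02 ± 0.321 CPM with shLITATS1-2, against 15.1 ± 1.51 CPM with shNT (SD, n = 3 each). Its log2 fold changes were -2.18 (SE 0.113, adjusted p = 1.05e-27) and -2.32 (SE 0.113, adjusted p = 3.78e-29) by the quasi-likelihood test of edgeR, with Benjamini-Hochberg adjustment over all tested genes. The 2 hairpins left LITATS1 at levels that did not differ past the threshold (log2 difference 0.14, 95% confidence interval -0.17 to 0.45, adjusted p = 0.438 by the same test). All 8 epithelial markers were present, with a summed level of 9070 to 9242 CPM with shLITATS1-1, 5232 to 5546 CPM with shLITATS1-2 and 5520 to 5804 CPM with shNT. These sums rest mainly on keratins. KRT8 and KRT18 averaged 5231 and 2180 CPM with shLITATS1-1, against 3032 and 1150 CPM with shNT. EPCAM and CDH1 averaged 4.91 and 33.7 CPM with shLITATS1-1, against 4.22 and 35.9 CPM with shNT. The 10 fibroblast markers summed to only 5.99 to 6.05 CPM with shLITATS1-1, 2.08 to 2.69 CPM with shLITATS1-2 and 3.02 to 3.59 CPM with shNT, with 2 to 5 of them at 0 in a library, among them DPT and POSTN in all 9. Of these markers, LUM averaged 3.59 CPM with shLITATS1-1 and 0.461 CPM with shNT, and THY1 1.12 and 2.29 CPM. The 8 endothelial and immune markers summed to between 0.105 and 0.672 CPM. The libraries are bulk, so fewer cells of a kind and less RNA per cell cannot be told apart, and the part of the differences in marker sums in the results was not tested.

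With shLITATS1-1, 8 of the 10 enzyme genes were higher than with shNT, 0 were lower, and LOXL2 and P4HA1 passed in neither direction, by edgeR's quasi-likelihood test at an adjusted p of 0.05. With shLITATS1-2, 7 were higher, P4HA1 was lower, and LOX and LOXL1 passed in neither direction. The background to these counts is broad: 61.0% of the 15500 tested genes were called with shLITATS1-1 (30.5% of all tested genes higher and 30.5% lower), and 56.7% with shLITATS1-2 (27.8% of all tested genes higher and 28.9% lower). The median log2 fold change of the 10 was 0.74 with shLITATS1-1, where that of all tested genes was -0.01, and 0.22 with shLITATS1-2, where that of all genes was 0.00. Both comparisons use the same 3 shNT libraries, so their directions are not independent. The hairpins also differed from each other: 7 of the 10 were higher with shLITATS1-1 than with shLITATS1-2, LOXL2 was lower, and LOXL4 and PLOD3 passed in neither direction, where 60.9% of all tested genes were called, 30.2% higher and 30.7% lower. Changes of at least 2-fold were fewer. With shLITATS1-1 they were P4HA3 and LOXL4, both higher than with shNT, where 8.68% of tested genes were called at that size. With shLITATS1-2 0 of the 10 enzyme genes reached it, where 5.95% of tested genes did. Between hairpins LOX, LOXL1 and P4HA3 did, all higher with shLITATS1-1, where 8.32% of tested genes did.

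**Figure D1:**
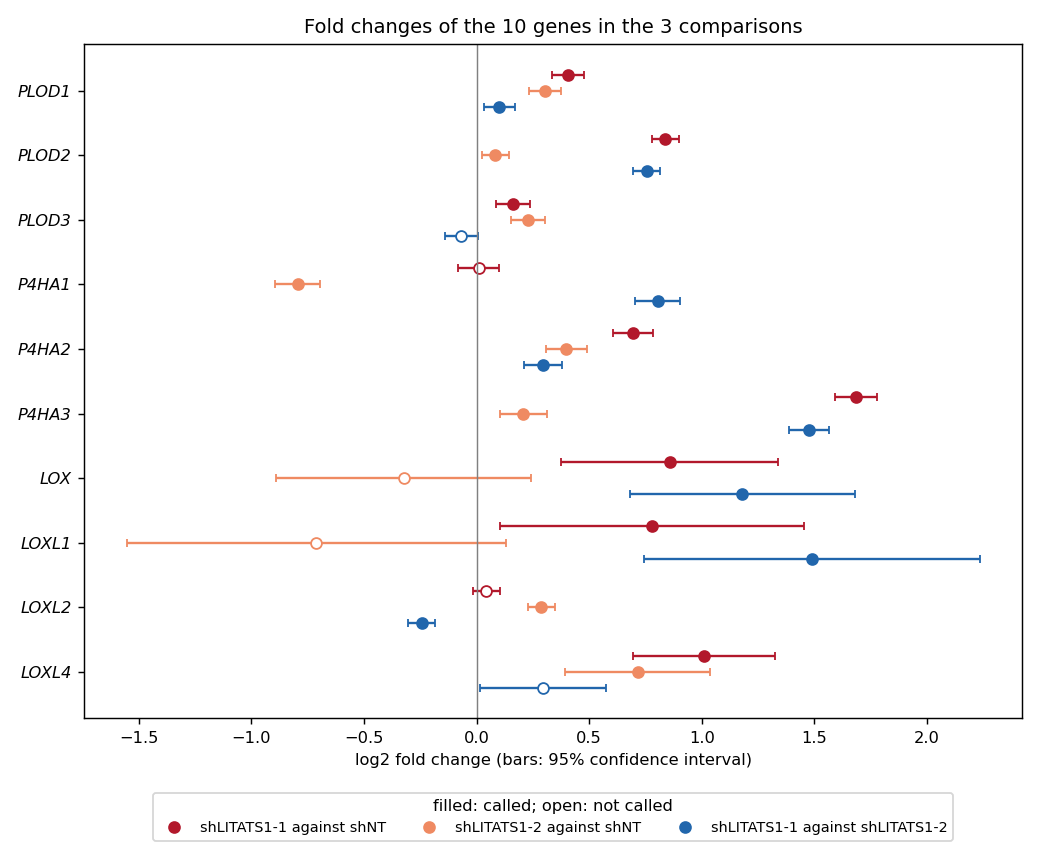
Log2 fold changes (x axis) of the 10 genes (rows) with shLITATS1-1 against shNT, shLITATS1-2 against shNT, and shLITATS1-1 against shLITATS1-2; points are edgeR estimates and bars 95% confidence intervals, filled where the adjusted p was at most 0.05. P4HA3 at 1.68 with shLITATS1-1 lies farthest to the right among the comparisons with shNT, P4HA1 is the 1 filled point left of 0 with shLITATS1-2, and the bars of LOX and LOXL1 are the widest.

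The prolyl 4-hydroxylase alpha subunits moved in 3 different ways. P4HA3 (ENSG00000149380, minus strand, chr11:74235801-74311657), a subunit that is scarce in most tissues, had 105, 102 and 107 CPM with shLITATS1-1, 36.8, 36.8 and 39.3 CPM with shLITATS1-2, and 30.5, 32.9 and 34.4 CPM with shNT. The 3 shLITATS1-1 libraries stood far above the other 6, while the shLITATS1-2 libraries lay just above the shNT libraries without overlap. P4HA3 rose 3.21-fold with shLITATS1-1 (log2 fold change 1.68, SE 0.0467, adjusted p = 1.59e-43) and by 0.21 on the log2 scale with shLITATS1-2 (SE 0.053, adjusted p = 0.000559), both by edgeR's quasi-likelihood test. Under scaling by library size alone the shLITATS1-2 value was 0.32, more than 1.5 times as large. The hairpins differed by 1.48 (SE 0.0451, adjusted p = 5.30e-41, same test).

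P4HA1 (ENSG00000122884, minus strand, chr10:73007217-73096974), the alpha subunit that most cells rely on, showed the opposite arrangement. It had 58.9, 56.4 and 58.7 CPM with shLITATS1-1, 31.1, 33.4 and 35.2 CPM with shLITATS1-2, and 57.5, 57.9 and 57.6 CPM with shNT. The shLITATS1-2 libraries alone were low, and the shLITATS1-1 and shNT libraries overlapped. P4HA1 fell by 0.79 on the log2 scale with shLITATS1-2 (SE 0.0496, adjusted p = 2.64e-23 by edgeR's quasi-likelihood test) and had a value of 0.01 with shLITATS1-1 (95% confidence interval -0.08 to 0.10, adjusted p = 0.878). The difference between hairpins was 0.80 (SE 0.0497, adjusted p = 1.47e-23, same test).

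P4HA2 (ENSG00000072682, minus strand, chr5:132191838-132295315), a second alpha subunit found in cartilage, bone and many tumours, rose with both hairpins. Its level was 74.3, 79.2 and 79.7 CPM with shLITATS1-1, 61.9, 61.6 and 66.5 CPM with shLITATS1-2, and 48.3, 47.9 and 47.9 CPM with shNT. The 3 groups did not overlap. The log2 fold change was 0.69 with shLITATS1-1 (SE 0.0448, adjusted p = 1.07e-22) and 0.40 with shLITATS1-2 (SE 0.0455, adjusted p = 6.90e-12), and the hairpins differed by 0.30 (SE 0.0427, adjusted p = 9.29e-09), all by edgeR's quasi-likelihood test; the last value was 0.17 when libraries were scaled by size alone. The partner subunit P4HB, named after its values were seen because no alpha subunit works without it, averaged 759 ± 16.4 CPM with shLITATS1-1 and 791 ± 16.8 CPM with shLITATS1-2, against 694 ± 5.99 CPM with shNT (SD, n = 3 each). Its log2 fold changes were 0.13 (adjusted p = 5.68e-05) and 0.19 (adjusted p = 1.88e-08) by the same test.

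**Figure D2:**
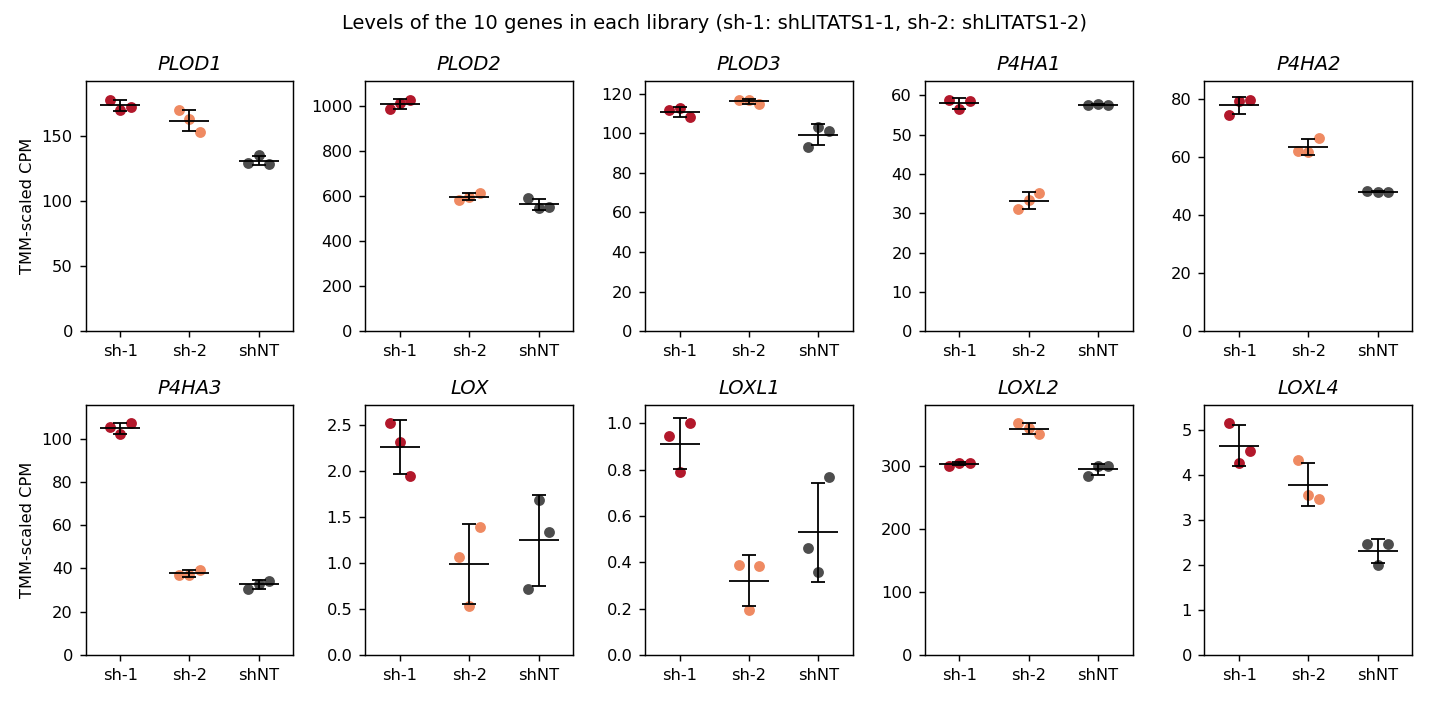
TMM-scaled CPM (y axis, from 0, a separate scale for each gene) of the 10 genes in the 3 libraries of shLITATS1-1 (sh-1), shLITATS1-2 (sh-2) and shNT; points are libraries, long bars the group mean and short bars ± 1 SD. PLOD2 and P4HA3 are set apart by the shLITATS1-1 libraries, P4HA1 by low shLITATS1-2 libraries, and LOX and LOXL1 scatter most within groups.

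All 3 lysyl hydroxylase genes were higher with both hairpins, and PLOD2 was the one in which the hairpins were farthest apart. PLOD2 (ENSG00000152952, minus strand, chr3:146069440-146163653), the telopeptide lysyl hydroxylase, had 986, 1012 and 1029 CPM with shLITATS1-1, 582, 598 and 614 CPM with shLITATS1-2, and 593, 548.6 and 552 CPM with shNT. The shLITATS1-1 libraries lay above all 6 others, whereas the shLITATS1-2 and shNT libraries overlapped. PLOD2 rose by 0.84 on the log2 scale with shLITATS1-1 (SE 0.0297, adjusted p = 3.71e-37) and by 0.08 with shLITATS1-2 (SE 0.0298, adjusted p = 0.0147) by edgeR's quasi-likelihood test, and the hairpins differed by 0.76 (SE 0.0296, adjusted p = 1.26e-34). The small shLITATS1-2 value did not hold in every setting: the same test gave 0.06 (adjusted p = 0.117) without shNT replicate 2, 0.07 (adjusted p = 0.089) without shNT replicate 3 and 0.06 (adjusted p = 0.114) without shLITATS1-2 replicate 3, against 0.20 (adjusted p = 3.69e-08) when libraries were scaled by size alone.

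PLOD1 (ENSG00000083444, plus strand, chr1:11934205-11975538), which hydroxylates lysines within the helix, had 178, 170 and 172 CPM with shLITATS1-1, 169, 162 and 153 CPM with shLITATS1-2, and 129, 135 and 128 CPM with shNT. Both hairpin groups were clear of the shNT libraries. It rose by 0.41 with shLITATS1-1 (SE 0.0356, adjusted p = 2.05e-16) and 0.31 with shLITATS1-2 (SE 0.0355, adjusted p = 1.29e-11) on the log2 scale by edgeR's quasi-likelihood test. The hairpins differed by 0.10 (SE 0.0347, adjusted p = 0.0104), a call that was lost without shLITATS1-1 replicate 1 (0.08, adjusted p = 0.0645) and without shLITATS1-2 replicate 3 (0.06, adjusted p = 0.163), and that turned to -0.03 (adjusted p = 0.44) when libraries were scaled by size alone, all by the same test.

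PLOD3 (ENSG00000106397, minus strand, chr7:101205977-101218420), the lysyl hydroxylase that also adds sugars to hydroxylysine, had 112, 113 and 108 CPM with shLITATS1-1, 117, 117 and 115 CPM with shLITATS1-2, and 93.2, 103 and 101 CPM with shNT. Each hairpin group lay above the shNT libraries by a small margin. The rise was 0.16 (SE 0.0381, adjusted p = 0.000178) with shLITATS1-1 and 0.23 (SE 0.0376, adjusted p = 2.72e-07) with shLITATS1-2 on the log2 scale by edgeR's quasi-likelihood test. The difference between hairpins was -0.07 (95% confidence interval -0.14 to 0.01, adjusted p = 0.114), and -0.20 (adjusted p = 3.82e-06) under scaling by library size alone, by the same test.

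Among the lysyl oxidases, the abundant gene and the 3 scarce ones behaved differently. LOXL2 (ENSG00000134013, minus strand, chr8:23297189-23425328), which cross-links type IV collagen and is a marker of invasive carcinoma, had 302, 306 and 306 CPM with shLITATS1-1, 369, 361 and 352 CPM with shLITATS1-2, and 285, 301 and 300.0 CPM with shNT. The shLITATS1-2 libraries stood well above all others, and the shLITATS1-1 libraries lay within a few CPM of the higher shNT libraries. LOXL2 rose by 0.29 on the log2 scale with shLITATS1-2 (SE 0.0303, adjusted p = 4.14e-13 by edgeR's quasi-likelihood test) and had a value of 0.04 with shLITATS1-1 (95% confidence interval -0.02 to 0.10, adjusted p = 0.21). It was lower with shLITATS1-1 than with shLITATS1-2, by -0.24 (SE 0.0302, adjusted p = 1.18e-10), or -0.37 with libraries scaled by size alone, by the same test.

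LOXL4 (ENSG00000138131, minus strand, chr10:98247690-98268250), a lysyl oxidase close in domain structure to LOXL2, had 5.15, 4.26 and 4.53 CPM with shLITATS1-1, 4.34, 3.56 and 3.46 CPM with shLITATS1-2, and 2.46, 1.99 and 2.46 CPM with shNT. Every hairpin library was above every shNT library. It rose by 1.01 (SE 0.158, adjusted p = 7.30e-08) with shLITATS1-1 and by 0.72 (SE 0.162, adjusted p = 0.000116) with shLITATS1-2 on the log2 scale by edgeR's quasi-likelihood test. The difference between hairpins, 0.29 (95% confidence interval 0.01 to 0.57, adjusted p = 0.0624), passed without shLITATS1-1 replicate 2 (0.36, adjusted p = 0.0447) or without shLITATS1-2 replicate 1 (0.40, adjusted p = 0.0249), and was 0.16 (adjusted p = 0.305) when libraries were scaled by size alone, by the same test.

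LOX (ENSG00000113083, minus strand, chr5:122063195-122078360), the founding member of the family, was near the limit of this depth, with 48, 44 and 37 fragments with shLITATS1-1, 22, 11 and 29 with shLITATS1-2, and 14, 33 and 26 with shNT. As levels these were 2.52, 2.32 and 1.95 CPM with shLITATS1-1, 1.06, 0.529 and 1.39 CPM with shLITATS1-2, and 0.716, 1.69 and 1.33 CPM with shNT. The shLITATS1-1 libraries were above all others and the other groups overlapped. LOX rose by 0.86 on the log2 scale with shLITATS1-1 (SE 0.24, adjusted p = 0.00162) by edgeR's quasi-likelihood test, with a value of -0.32 (95% confidence interval -0.89 to 0.24, adjusted p = 0.341) with shLITATS1-2. That value ranged from -0.65 without shLITATS1-2 replicate 3 to -0.02 without shLITATS1-2 replicate 2 and passed in no setting tried; without shNT replicate 1 it was -0.59 and without shNT replicate 2 it was -0.05. The hairpins differed by 1.18 (SE 0.249, adjusted p = 4.01e-05, same test).

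LOXL1 (ENSG00000129038, plus strand, chr15:73925989-73952137), needed for elastic fibres, was rarer still. It had 18, 15 and 19 fragments with shLITATS1-1, 8, 4 and 8 with shLITATS1-2, and 9, 7 and 15 with shNT, which came to 0.946, 0.789 and 1.00 CPM with shLITATS1-1, 0.386, 0.192 and 0.384 CPM with shLITATS1-2, and 0.461, 0.358 and 0.770 CPM with shNT. The shLITATS1-1 libraries lay just above the shNT library with the highest level. Its log2 fold change with shLITATS1-1 was 0.78 (95% confidence interval 0.10 to 1.45, adjusted p = 0.0412) by edgeR's quasi-likelihood test, but the call was lost with DESeq2 (adjusted p = 0.138), with no filter on low counts (adjusted p = 0.0889), and without shNT replicate 1 (0.69, adjusted p = 0.115), shNT replicate 2 (0.56, adjusted p = 0.197), shLITATS1-1 replicate 1 (0.75, adjusted p = 0.0906) or shLITATS1-1 replicate 3 (0.71, adjusted p = 0.114). With shLITATS1-2 it was -0.71 (95% confidence interval -1.55 to 0.13, adjusted p = 0.147). The difference between hairpins was 1.49 (SE 0.373, adjusted p = 0.000416, same test).

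Several of these loci share exonic sequence with a neighbour in the GENCODE 29 annotation, and whether the counting used strand is not stated in the sources used here; reads of such stretches cannot be assigned with certainty. LOXL1-AS1, the antisense gene of LOXL1, averaged 3.35 CPM with shLITATS1-1, 2.66 CPM with shLITATS1-2 and 2.80 CPM with shNT, more than LOXL1 itself, with log2 fold changes of 0.26 with shLITATS1-1 and -0.07 with shLITATS1-2 that did not pass edgeR's quasi-likelihood test (adjusted p = 0.188 and 0.751). SRFBP1, which overlaps LOX, fell by 0.69 (adjusted p = 1.83e-11) with shLITATS1-1, while LOX rose. ENTPD4, on the strand of LOXL2, rose by 0.42 (adjusted p = 2.19e-14) with shLITATS1-1 and was at 0.06 (adjusted p = 0.198) with shLITATS1-2. ZNHIT1, beside PLOD3, rose by 0.25 (adjusted p = 1.26e-05) with shLITATS1-1 and was at -0.08 (adjusted p = 0.205) with shLITATS1-2, and PPME1, beside P4HA3, fell by 0.18 (adjusted p = 4.10e-05) with shLITATS1-1, all by the same test. The antisense genes of P4HA2 and P4HA3 averaged at most 0.0351 CPM in any group. Exons of P4HA1, LOXL4 and LOXL2 also overlap those of AL731563.2, AL139241.1 and AC090197.1, in that order, for which no level is given here. The part of overlapping reads in the fold changes was not tested.

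Levels of different genes were compared per length of exon, as TPM, a scale on which each library has the same total, and within a group. TPM of 1 gene in different groups do not give the fold changes above. PLOD2 averaged 598 CPM with shLITATS1-2 and 565 CPM with shNT on the TMM scale, closer together than its TPM. PLOD2 was first in every group, at 412 TPM with shLITATS1-1, 279 TPM with shLITATS1-2 and 219.8 TPM with shNT. LOXL2 followed, at 167 TPM with shLITATS1-1, 225 TPM with shLITATS1-2 and 154 TPM with shNT, and then PLOD1, at 102 TPM with shLITATS1-1, 108 TPM with shLITATS1-2 and 73.1 TPM with shNT. P4HA3 ranked 4 of 10 with shLITATS1-1, at 81.6 TPM, and 6 of 10 with shLITATS1-2 and shNT, at 33.5 and 24.2 TPM. P4HA1 and PLOD3 were close on this scale with shLITATS1-1, at 58.5 and 61.0 TPM, and with shNT, at 55.5 and 52.0 TPM. With shLITATS1-2 they were farther apart, at 38.3 and 73.0 TPM. Only their order with shNT turned on the length used. With the longest transcript of each gene, PLOD3 was above P4HA1 in every group, at 91.8 against 49.3 TPM with shLITATS1-1, 108 against 31.8 TPM with shLITATS1-2 and 79.5 against 47.5 TPM with shNT. On that length PLOD2, LOXL2 and PLOD1 kept the first 3 ranks in every group, and P4HA3 ranked 4 with shLITATS1-1, 6 with shLITATS1-2 and 7 with shNT. LOXL4 (3.97, 3.69 and 1.88 TPM with shLITATS1-1, shLITATS1-2 and shNT), LOX and LOXL1 were the last 3 in every group, and the ranges of LOX and LOXL1 overlapped with shLITATS1-2 and with shNT.

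Within the prolyl 4-hydroxylase family the make-up differed between groups. P4HA3 supplied 48.4 ± 0.294% of the per-length level of the 3 alpha subunits with shLITATS1-1, 34.1 ± 0.504% with shLITATS1-2 and 25.1 ± 1.13% with shNT (SD, n = 3 each). P4HA1 supplied 34.7 ± 0.488% with shLITATS1-1, 38.9 ± 0.922% with shLITATS1-2 and 57.5 ± 0.799% with shNT. P4HA2 supplied 16.9 ± 0.705% with shLITATS1-1, 27.0 ± 0.434% with shLITATS1-2 and 17.4 ± 0.347% with shNT. Which subunit was first with shLITATS1-2 turned on the length used: with the longest transcript in place of all exons, P4HA2 led there with 42.1%, P4HA3 had 31.9% and P4HA1 had 26.0%, whereas P4HA3 still led with shLITATS1-1 (47.8%) and P4HA1 with shNT (43.1%). The summed level of the family, in TMM-scaled CPM per kilobase of all exons, was 54.0 ± 1.02 with shLITATS1-1 and 27.6 ± 1.29 with shLITATS1-2, against 32.4 ± 0.494 with shNT. All exons of P4HA2 span 8502 bases and its longest transcript 3349, so the length used also weighs on this sum. The sum was not computed with the longest transcripts, and the lower value with shLITATS1-2 is given for this length alone.

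PLOD2 made up 71.7 ± 0.788% of the lysyl hydroxylase level with shLITATS1-1, 60.6 ± 1.48% with shLITATS1-2 and 63.7 ± 1.73% with shNT, PLOD1 between 17.7 and 23.5% and PLOD3 between 10.6 and 15.9% as group means (SD, n = 3). The family's sum was 184 ± 1.95 CPM per kilobase with shLITATS1-1, 129 ± 0.468 with shLITATS1-2 and 116 ± 2.05 with shNT. The lysyl oxidase shares and sum cover only LOX, LOXL1, LOXL2 and LOXL4, and no other gene of that family entered them. LOXL2 held 96.5 ± 0.328% of the level of these 4 genes with shLITATS1-1, 98.0 ± 0.255% with shLITATS1-2 and 98.1 ± 0.177% with shNT. The rises of LOX, LOXL1 and LOXL4 with shLITATS1-1 therefore concerned genes that supplied 0.738, 0.453 and 2.30% of that level there, and 0.423, 0.276 and 1.198% with shNT. The lysyl oxidase sum was 55.3 ± 0.288 CPM per kilobase with shLITATS1-1, 64.4 ± 1.60 with shLITATS1-2 and 52.8 ± 1.65 with shNT. Shares and sums are descriptions without a test.

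**Figure D3:**
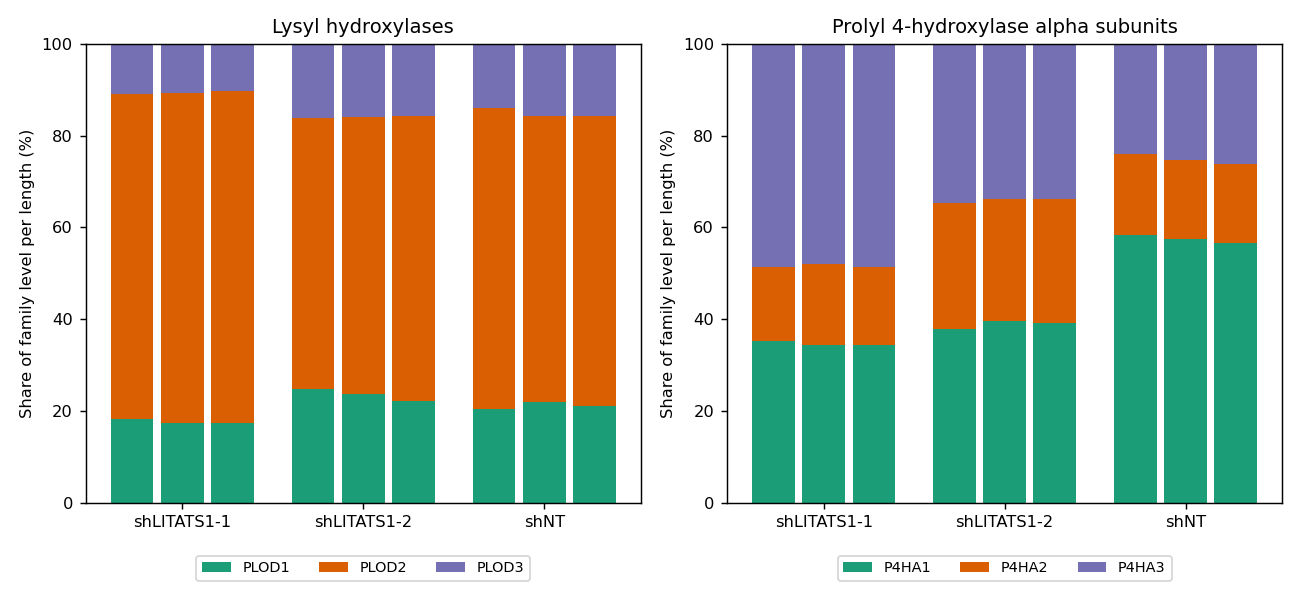
Share (y axis, percent, from 0) of each gene in the summed per-length level of the lysyl hydroxylases (left) and of the prolyl 4-hydroxylase alpha subunits (right) with shLITATS1-1, shLITATS1-2 and shNT; each stacked bar is 1 library and its colours are genes. P4HA3 is the main alpha subunit with shLITATS1-1 (mean 48.4%) and P4HA1 with shNT (mean 57.5%), and PLOD2 leads the lysyl hydroxylases in all 9 libraries.

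Most tested genes for collagens and elastic-fibre proteins were higher with each hairpin. Of 28 listed genes for collagens, elastin, fibrillin and the elastic-fibre fibulins FBLN5 and EFEMP2, 24 were tested. With shLITATS1-1, 19 (79.2%) were higher and 3 (12.5%) lower, with a median of 1.23, where 30.5% of all tested genes were higher and 30.5% lower. With shLITATS1-2, 15 (62.5%) were higher and 5 (20.8%) lower, with a median of 0.59, where 27.8% of all tested genes were higher and 28.9% lower. FBLN5 was among the lower genes with each hairpin, at -0.29 with shLITATS1-1 and -0.59 with shLITATS1-2 (adjusted p = 0.0437 and 0.000101 by edgeR's quasi-likelihood test). COL4A4, COL11A1 and COL27A1 were called in opposite directions, at 1.56, 1.05 and 0.14 with shLITATS1-1 and -0.495, -0.641 and -0.193 with shLITATS1-2. COL12A1 was called lower with shLITATS1-2 alone, at -0.395, and COL16A1 and COL18A1 with shLITATS1-1 alone, at -0.217 and -0.116. COL1A1, the chain of fibrillar type I collagen, averaged 43.0 ± 2.19 CPM with shLITATS1-1 and 51.8 ± 1.80 CPM with shLITATS1-2, against 12.7 ± 0.635 CPM with shNT, with log2 fold changes of 1.76 (adjusted p = 2.53e-36) and 2.03 (adjusted p = 7.63e-41) by edgeR's quasi-likelihood test. FBN1, the microfibril protein fibrillin, averaged 93.4 ± 3.54 CPM with shLITATS1-1 and 43.6 ± 0.715 CPM with shLITATS1-2, against 20.4 ± 1.22 CPM with shNT, with log2 fold changes of 2.19 (adjusted p = 5.30e-48) and 1.10 (adjusted p = 9.16e-28). COL13A1, a transmembrane collagen, and COL3A1, the fibrillar collagen of soft tissue, also rose with both hairpins but had only 0.376 and 0.171 CPM with shNT. COL1A2, the partner chain of COL1A1 in type I collagen, had 0 or 1 fragment in each hairpin library and 0 in all 3 shNT libraries.

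Partners in folding moved less evenly. Of 16 listed genes for procollagen folding and hydroxylation, 15 were tested; 13 (86.7%) were higher and 2 (13.3%) lower with shLITATS1-1 (median 0.24), and 7 (46.7%) were higher and 3 lower with shLITATS1-2 (median 0.07), beside the same shares of all tested genes. SERPINH1, the collagen chaperone HSP47, averaged 146 ± 4.10 CPM with shLITATS1-1 and 242 ± 10.1 CPM with shLITATS1-2, against 130 ± 4.79 CPM with shNT. Its log2 fold changes were 0.17 (adjusted p = 5.16e-05) and 0.89 (adjusted p = 8.66e-35) by edgeR's quasi-likelihood test. COLGALT1, which adds galactose to hydroxylysine, rose by 0.46 and 0.71 with shLITATS1-1 and shLITATS1-2 (adjusted p = 1.19e-19 and 1.05e-29). The prolyl isomerase FKBP14, which helps procollagen fold in the endoplasmic reticulum, went opposite ways, with a log2 fold change of 0.41 with shLITATS1-1 (adjusted p = 1.70e-08) and -0.96 with shLITATS1-2 (adjusted p = 5.69e-20). FKBP7, of the same isomerase family, rose by 0.98 with shLITATS1-1 (adjusted p = 2.98e-16) and was at -0.02 with shLITATS1-2 (adjusted p = 0.904).

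Among 16 genes for procollagen export and processing, 13 were tested, of which 7 (53.8%) were higher and 0 lower with shLITATS1-1 (median 0.12), where 30.5% of all tested genes were higher and 30.5% lower. With shLITATS1-2, 6 (46.2%) were higher and 4 (30.8%) lower (median 0.13), where 27.8% of all tested genes were higher and 28.9% lower, so the lower share was near that of all genes. BMP1, the proteinase that removes the C-propeptide of collagen and also activates LOX, averaged 195 ± 3.65 CPM with shLITATS1-1 and 182 ± 6.13 CPM with shLITATS1-2, against 83.2 ± 5.77 CPM with shNT. FURIN, the convertase that activates BMP1, averaged 271 ± 11.8 CPM with shLITATS1-1 and 208 ± 3.88 CPM with shLITATS1-2, against 102 ± 4.05 CPM with shNT. Their log2 fold changes were 1.23 and 1.13 for BMP1 (adjusted p = 1.42e-39 and 1.89e-37) and 1.41 and 1.03 for FURIN (adjusted p = 2.68e-46 and 9.17e-38) with shLITATS1-1 and shLITATS1-2 by edgeR's quasi-likelihood test. CREB3L1, a transcription factor for collagen secretion, rose by 0.47 (adjusted p = 0.0151) and 1.35 (adjusted p = 3.70e-12), and the BMP1 relative TLL2, below 1 CPM in every group, by 1.23 (adjusted p = 0.00702) and 0.97 (adjusted p = 0.0421). The 4 lower genes with shLITATS1-2 were TLL1, SEC24D, TRAM2 and PCOLCE2. TLL1, the other BMP1 relative listed, averaged 1.84 CPM with shNT. Its values were -0.41 (adjusted p = 0.11) with shLITATS1-1 and -1.17 (adjusted p = 4.55e-05) with shLITATS1-2 by the same test.

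Copper reaches lysyl oxidases through the ATPase ATP7A, which pumps it into the secretory pathway. ATP7A averaged 14.7 ± 0.911 CPM with shLITATS1-2, against 43.6 ± 2.48 CPM with shNT, and fell by 1.57 on the log2 scale (SE 0.0629, adjusted p = 6.30e-34 by edgeR's quasi-likelihood test). With shLITATS1-1 it averaged 40.2 ± 1.91 CPM, a value of -0.12 (adjusted p = 0.0512), and the hairpins differed by 1.45 (adjusted p = 1.22e-31). ATP7A was the only one of 7 tested copper genes called with shLITATS1-2, where 56.7% of all tested genes were called. With shLITATS1-1, 2 were higher and 1 lower, where 61.0% of all tested genes were called. With shLITATS1-1, the copper chaperone ATOX1 rose by 0.29 (adjusted p = 5.92e-06) and the second ATPase ATP7B by 0.34 (adjusted p = 0.000969), and COX17, which carries copper to mitochondria, fell by 0.44 (adjusted p = 4.63e-10), all by the same test.

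Genes known to be induced by hypoxia-inducible factors, other than the enzymes themselves, did not share 1 direction. All 28 were tested. With shLITATS1-1, 10 (35.7%) were higher and 11 (39.3%) lower (median 0.04), near the 30.5% higher and 30.5% lower among all tested genes. With shLITATS1-2, 6 (21.4%) were higher and 15 (53.6%) lower (median -0.18), where 27.8% of all tested genes were higher and 28.9% lower. Between hairpins, 18 (64.3%) were higher and 5 (17.9%) lower with shLITATS1-1 than with shLITATS1-2 (median 0.23), where 30.2% of all tested genes were higher and 30.7% lower. CA9, a carbonic anhydrase used as a hypoxia marker, averaged 1.12 ± 0.154 CPM with shLITATS1-2, against 2.95 ± 0.154 CPM with shNT, and fell by 1.39 on the log2 scale (adjusted p = 3.34e-08), with a value of 0.32 (adjusted p = 0.0838) with shLITATS1-1 by edgeR's quasi-likelihood test. MXI1, a repressor of the MYC network, fell by 0.48 with shLITATS1-1 and 1.37 with shLITATS1-2 (adjusted p = 3.79e-07 and 3.61e-22), and ADM, the peptide hormone adrenomedullin, fell by 0.60 and 1.00 (adjusted p = 5.41e-16 and 7.53e-26). ANGPTL4, a secreted inhibitor of lipoprotein lipase, rose by 1.07 and 0.91 (adjusted p = 4.44e-25 and 3.13e-21) in the same comparisons. Of the 4 enzyme genes named above as known targets, P4HA2, PLOD2 and LOX rose with shLITATS1-1, while with shLITATS1-2 P4HA2 rose and P4HA1 fell. PLOD2 rose by only 0.08 with shLITATS1-2, a call that did not hold in every setting.

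**Figure D4:**
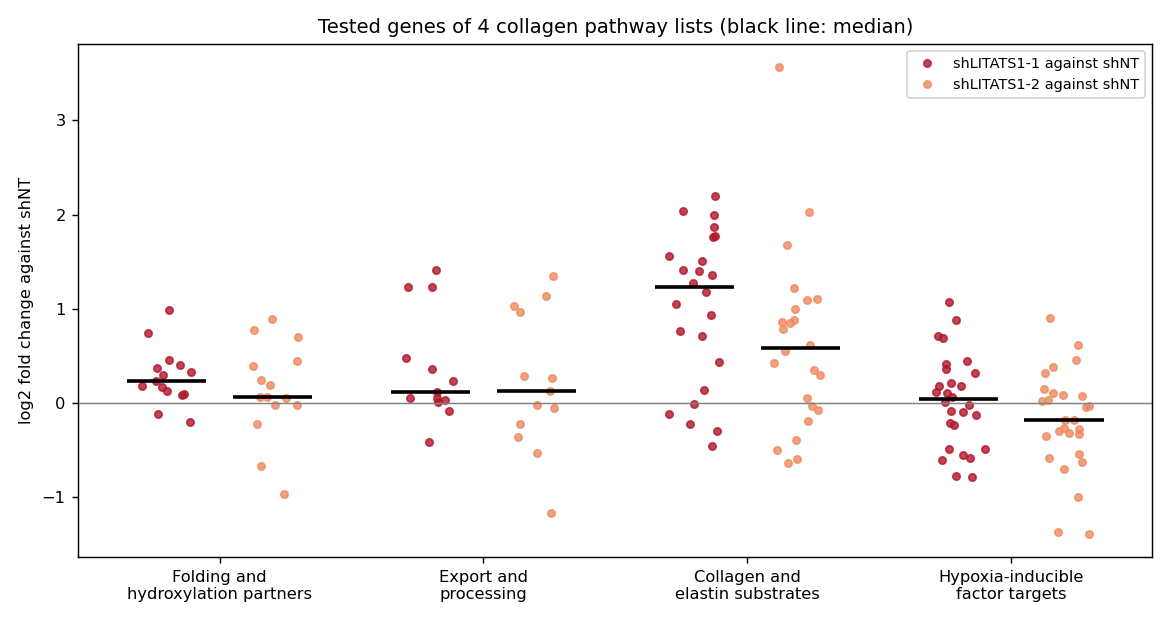
Log2 fold changes (y axis) of the tested genes of 4 lists (x axis) with shLITATS1-1 and with shLITATS1-2 against shNT; points are genes, spread sideways for legibility, and black lines are medians. The genes for collagens and elastic-fibre proteins (labelled collagen and elastin substrates) have medians of 1.23 and 0.59 and the hypoxia-inducible factor targets of 0.04 and -0.18.

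The genes whose levels over the 9 libraries were most like each enzyme gene were found by Pearson correlation of log2 CPM among about 12310 genes of sufficient level, as a description, since the 9 points are 3 groups of 3 and mostly repeat the 3 group levels. P4HA3 was most like L1CAM (r = 0.998) and CD59 (r = 0.998), PLOD2 most like RAI14 and RASGRP3 (both r = 0.998 after rounding), and P4HA1 most like NRP1 and FHIP2A (both r = 0.996). P4HA2 was most like CDH6 and BMP6 (both r = 0.996), and LOXL2 most like H2BC12 (r = 0.994) and CLU (r = 0.992). The nearest genes were MED15 and QSOX1 for PLOD1, TFEB and BAX for PLOD3, SSR1 and LINC00862 for LOXL4, POU6F1 and YIPF2 for LOX, and UMAD1 and RPL4P4 for LOXL1, with r from 0.95 to 0.988.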

How the data were processed

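Total RNA of 9 A549 cultures went into libraries read on a DNBSEQ machine, per the labels' protocols. The values are raw fragment counts per gene, deposited by the authors as 1 table and not normalised. The submitters' processing notes list HTSeq 0.12.4, STAR 2.7.5a, cutadapt 2.10 and FastQC, and the build GRCh38. Neither strand setting nor annotation release is given in the sources used here. Fragments the counter gave to no gene did not enter library sizes or tests. They made up 20.1 to 20.3% with the LITATS1 hairpins and 19.0 to 19.1% with shNT, and unaligned fragments were 5.39 to 5.57% and 3.66 to 3.86%, so the shNT libraries stood apart in both. Those given to no gene included fragments marked ambiguous between genes, 2519600 to 2546026 a library with the LITATS1 hairpins and 2622021 to 2693687 with shNT. The part of all these fragments in the results was not tested. Groups and replicate numbers came from the titles, and no column was left unused. Beyond the label of biological replicates, nothing says how the cultures were separated, and p-values then measure only how these libraries vary, which may be technical.

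Genes were kept by filterByExpr (minimum count 10) and fitted in 1 edgeR 4.0.16 quasi-likelihood model (robust, TMM, 6 residual degrees of freedom) in R 4.3.3; tests were two-sided with Benjamini-Hochberg adjustment over 15500 genes and a threshold of 0.05. Standard errors are the fold change over the square root of F. The script was tested on simulated data. DESeq2 1.42.0, other scalings, filters, thresholds, a minimum change of 2-fold, a replicate block, 6-library fits and the omission of each library were tried. Replicates of a group differed by more than sampling noise (chi-square per degree of freedom 1.47 to 2.72). Exon lengths and overlaps came from GENCODE 29, promoters from RefSeq, and symbols from tables matched by identifier. TPM were computed here from counts and exon-union length.

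The 10 genes and all lists were chosen with earlier results of these data known. Every gene of the 10 is named, with LITATS1; of each other list up to 4 genes are named, those with the largest summed absolute fold change over both comparisons with shNT among genes called in at least 1. Genes most alike are the 2 with the highest correlation per enzyme gene at a mean log2 CPM of at least 1. P4HB, COL1A2, COL4A4, COL11A1, COL12A1, COL16A1, COL18A1, COL27A1, FBLN5, EFEMP2, TLL1, SEC24D, TRAM2, PCOLCE2, PDGFRA, DPT, POSTN, EPCAM, CDH1, KRT8, HYKK, PHYKPL, HIF1A, EPAS1, ARNT and HIF1AN are named outside that rule, after their values were seen.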

Additional observations from a re-analysis of the deposited data

How the results depend on the processing

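Of 473 values of the 10 enzyme genes under other scalings, tools, filters, fits and omitted libraries, 458 kept their side of the threshold, 11 kept the direction and lost the call, 3 gained one and 1 called value turned round, PLOD1 between hairpins at -0.031 under scaling by library size alone. That scaling moved the median log2 fold change of all genes by -0.02, 0.11 and -0.13 (shLITATS1-1 against shNT, shLITATS1-2 against shNT, and shLITATS1-1 against shLITATS1-2). It gave 6054 genes higher and 2968 lower with shLITATS1-2, where TMM gave 4302 and 4485, 3293 higher and 6911 lower between hairpins, where TMM gave 4684 and 4755, and 2 enzyme genes lower between hairpins in place of 1. A minimum change of 2-fold left 951 genes higher and 394 lower with shLITATS1-1, 586 and 336 with shLITATS1-2, and 817 and 472 between hairpins; of the 10 enzyme genes it left 2 higher with shLITATS1-1, 0 higher and 0 lower with shLITATS1-2, and 3 higher and 0 lower between hairpins. Leaving out 1 library at a time gave 7 to 8 enzyme genes higher with shLITATS1-1, 6 to 7 with shLITATS1-2 and 6 to 8 between hairpins. Same-numbered libraries showed no shared deviation over all tested genes (correlations -0.06 to 0.04), which cannot show that the numbers carry no pairing. With the number as a replicate block, 8 of the enzyme genes were higher with shLITATS1-1, 7 with shLITATS1-2 and 7 between hairpins. The block gave 4643 and 4235 genes higher with shLITATS1-1 and shLITATS1-2. A threshold of 0.01 ended the calls of LOXL1 with shLITATS1-1, PLOD2 with shLITATS1-2 and PLOD1 between hairpins. The causes were not tested. LOX and LOXL1 rest on 4 to 48 fragments a library, and a filter of 50 counts left them out, which limits what can be shown for them.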

Other observations

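Of 9 tested genes for collagen degradation and hydroxylysine turnover, 6 (66.7%) were higher and 1 (11.1%) lower with shLITATS1-1 (median log2 fold change 0.81), where 30.5% of all tested genes were higher and 30.5% lower, by edgeR's quasi-likelihood test at an adjusted p of 0.05. With shLITATS1-2, 5 (55.6%) were higher and 1 (11.1%) lower (median 0.26), where 27.8% of all tested genes were higher and 28.9% lower. HYKK and PHYKPL, the genes for hydroxylysine turnover, passed in neither comparison, with 0.15 and 0.00 with shLITATS1-1 (adjusted p = 0.243 and 0.999) and -0.10 and 0.04 with shLITATS1-2 (adjusted p = 0.448 and 0.671). MMP2, a gelatinase, averaged 24.4 ± 1.37 CPM with shLITATS1-1 and 31.5 ± 0.738 CPM with shLITATS1-2, against 8.35 ± 0.743 CPM with shNT (SD, n = 3 each). MMP1 and MMP9, a collagenase and a gelatinase, rose with both hairpins but had 0.102 and 0.188 CPM with shNT. CTSK, a collagen-cleaving cathepsin, rose by 0.77 and 0.94 on the log2 scale (adjusted p = 0.00132 and 6.05e-05, same test).

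A list of 14 genes joined the handling of iron, ascorbate and 2-oxoglutarate with hypoxia-inducible factors and their hydroxylases (HIF1A, EPAS1, ARNT, EGLN2 and HIF1AN). With shLITATS1-1, 4 (28.6%) were higher and 7 lower, where 30.5% of all tested genes were higher and 30.5% lower. With shLITATS1-2, 2 (14.3%) were higher and 11 (78.6%) lower, where 27.8% of all tested genes were higher and 28.9% lower. EGLN2, HIF1AN, HIF1A and ARNT were 4 of these 11 lower genes. HIF1A went opposite ways, averaging 746 ± 13.6 CPM with shLITATS1-1 and 391 ± 2.87 CPM with shLITATS1-2, against 595 ± 16.4 CPM with shNT. EPAS1 averaged 721 ± 10.4 CPM with shLITATS1-1 and 798 ± 9.05 CPM with shLITATS1-2, against 748 ± 3.41 CPM with shNT. FTL, the ferritin light chain, averaged 5566 ± 142 CPM with shLITATS1-1 and 5037 ± 165 CPM with shLITATS1-2, against 9238 ± 407 CPM with shNT. SLC23A1, an ascorbate transporter, fell by 1.13 and 1.63 on the log2 scale (adjusted p = 3.77e-14 and 5.10e-20 by edgeR's quasi-likelihood test). The iron exporter SLC40A1 rose by 1.06 with shLITATS1-1 (adjusted p = 1.84e-31) and fell by 0.25 with shLITATS1-2 (adjusted p = 3.52e-05), and the prolyl hydroxylase of hypoxia-inducible factors EGLN2 fell by 0.77 and 0.30 (adjusted p = 2.59e-06 and 0.038). Few fragments were counted for EGLN2, which averaged 3.26, 4.49 and 5.55 CPM with shLITATS1-1, shLITATS1-2 and shNT.

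Of the 3 fibroblast markers that could be tested, LUM averaged 3.59 ± 0.273 CPM with shLITATS1-1, 0.545 ± 0.222 CPM with shLITATS1-2 and 0.461 ± 0.103 CPM with shNT, and THY1 fell with both hairpins. PDGFRA, with 0.273 CPM with shNT, had values of 0.98 (adjusted p = 0.0515) with shLITATS1-1 and 0.85 (adjusted p = 0.0982) with shLITATS1-2, which did not pass edgeR's quasi-likelihood test. Its highest shNT library, at 0.358 CPM, nearly reached the lowest libraries of shLITATS1-1 and shLITATS1-2, at 0.368 and 0.386 CPM. Of the 8 epithelial markers, 6 (75.0%) were higher and 0 lower with shLITATS1-1, and 4 were higher and 3 lower with shLITATS1-2, beside the same shares of all tested genes. CLDN4, at only 3.89 CPM with shNT, rose by 2.14 and 2.22 on the log2 scale (adjusted p = 3.39e-30 and 1.15e-31 by edgeR's quasi-likelihood test). CDH1, KRT8 and KRT18 averaged less with shLITATS1-2, at 26.0, 2754 and 961 CPM, against 35.9, 3032 and 1150 CPM with shNT.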
